A study of Rattus norvegicus with 4 samples.

Results

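The genes described here are the Wnt ligands, the Frizzled receptors and the secreted Sfrp and Dkk antagonists of rat heart nuclei. They were chosen by name alone, as every gene whose symbol begins with Wnt, Fzd, Sfrp or Dkk followed by a digit, which gave 37 of 32623 genes: 19 Wnt ligands, 10 Frizzled receptors, 4 Sfrp genes and 4 Dkk genes. Single-nucleus RNA sequencing (10x 3' kit, nuclear RNA) was carried out on heart tissue of Sprague Dawley rats labelled as infarct zone, with 1 sample each named MI_1H, MI_6H and MI_24H after myocardial infarction and 1 sample named Sham. The treatment labels call the 1, 6 and 24 h reperfusion and the series text describes coronary ligations of those lengths, so the start of the hours is unclear. Neither the number nor the age of the animals behind a sample is stated in these sources.

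All 4 libraries lie in a single matrix whose barcode suffixes 1 to 4 separate them, and no source ties a suffix to a sample. No comparison with sham or between times was therefore made: cell classes were compared inside each library, and libraries, called 1 to 4 by suffix, are given side by side. A difference between libraries has no replicate check, no p-value was computed, and all intervals are 95% intervals that cover counting error only. Levels are counts of unique molecular identifiers (UMIs) of a gene per 1000000 UMIs of a class, written CPM. They carry no correction for gene length, so levels are compared between classes and libraries and not between genes.

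The filtered data held 8364, 12898, 14288 and 6181 nuclei of libraries 1 to 4, at median depths of 1295.5, 602, 1884 and 2215 UMIs. Marker genes named 19 of 21 clusters and put them in 11 classes. The 9 measured cardiomyocyte markers summed to 33643, 22281, 12505 and 15256 CPM in the class they named, against 2503, 2247, 1189.8 and 1390.2 CPM in fibroblast-like nuclei. Library 2 stood apart, because 87.4% of its nuclei lay in the 2 unnamed clusters, against 0.251, 0.189 and 0.324% in libraries 1, 3 and 4, and because it held only 44 endothelial-like and 35 macrophage-like nuclei. Unnamed cluster 5, with 743 nuclei of library 2, scored highest for endothelial markers but had 1 of 9 past the bounds for a name. Endothelial-like values of library 2 leave these nuclei out. The counts of high members and of members with a wide span reported below are also given without library 2 where it changes them. The large classes also lay in different clusters in different libraries: fibroblast-like nuclei mainly in cluster 0 (library 1), cluster 9 (library 2) and clusters 13 and 18 (libraries 3 and 4), endothelial-like nuclei mainly in cluster 2 (library 1) and cluster 7 (libraries 3 and 4), and cardiomyocyte-like nuclei in cluster 1 (library 1), cluster 19 (library 2) and cluster 10 (libraries 3 and 4). Of 48372 barcode sequences, 264 occurred in 2 or more libraries, and leaving out the 442 nuclei that carried them moved none of 8 recomputed counts (members high in the fibroblast-like, endothelial-like, pericyte-like, cardiomyocyte-like and macrophage-like classes, and members of wide span in 3 of them) by more than 1.5 times.

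Wnt proteins are secreted, lipid-modified ligands that bind the cysteine-rich domain of Frizzled receptors on the cell surface. Together with the co-receptors Lrp5 and Lrp6 they stabilise beta-catenin, which enters the nucleus and acts with TCF and LEF factors, whereas with Ror1, Ror2 or Ryk they act on cell polarity and movement without beta-catenin. Sfrp proteins carry a Frizzled-like domain and bind Wnt ligands outside the cell, and Dkk1, Dkk2 and Dkk4 block or modulate Lrp5 and Lrp6, while Dkk3 is a divergent relative. In the heart the pathway is known from the development of the outflow tract and valves, from vessel growth and from scar formation after infarction.

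The promoters of 5 members are shown because the classes in which they were higher differ. In each of libraries 1, 3 and 4 they were at least 2-fold above all other named nuclei in these classes. The classes were endocardial-like and endothelial-like for Wnt9b, endothelial-like for Fzd4, pericyte-like for Wnt5a, cardiomyocyte-like for Wnt11 and fibroblast-like for Sfrp2. In library 2 Wnt11, Sfrp2, Fzd4 and, in endothelial-like nuclei, Wnt9b missed that bound. The library 1 ratio of Sfrp2 could not be told from 1. Each window runs from 250 bases before to 50 bases after the annotated gene start (RefSeq, GRCr8) and is written 5′ to 3′ on the strand of the gene, with matches to the motifs named below in capitals. The windows are Wnt9b at chr10:89157016-89157315 on the minus strand, Wnt5a at chr16:3703415-3703714, Wnt11 at chr1:162549110-162549409, Fzd4 at chr1:152692257-152692556 and Sfrp2 at chr2:171387286-171387585, these 4 on the plus strand.
Wnt9b: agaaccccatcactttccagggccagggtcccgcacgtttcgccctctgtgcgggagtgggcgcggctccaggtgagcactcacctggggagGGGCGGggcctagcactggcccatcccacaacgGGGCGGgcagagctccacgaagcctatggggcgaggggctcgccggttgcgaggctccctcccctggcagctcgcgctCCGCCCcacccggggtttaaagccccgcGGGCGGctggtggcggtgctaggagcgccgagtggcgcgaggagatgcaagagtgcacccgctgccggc
Fzd4: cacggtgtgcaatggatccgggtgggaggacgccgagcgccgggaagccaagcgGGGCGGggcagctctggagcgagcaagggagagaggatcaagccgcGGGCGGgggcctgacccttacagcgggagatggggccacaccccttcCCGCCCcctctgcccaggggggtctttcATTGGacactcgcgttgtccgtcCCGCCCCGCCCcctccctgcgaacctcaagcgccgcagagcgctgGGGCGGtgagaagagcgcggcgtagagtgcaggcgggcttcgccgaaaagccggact
Wnt5a: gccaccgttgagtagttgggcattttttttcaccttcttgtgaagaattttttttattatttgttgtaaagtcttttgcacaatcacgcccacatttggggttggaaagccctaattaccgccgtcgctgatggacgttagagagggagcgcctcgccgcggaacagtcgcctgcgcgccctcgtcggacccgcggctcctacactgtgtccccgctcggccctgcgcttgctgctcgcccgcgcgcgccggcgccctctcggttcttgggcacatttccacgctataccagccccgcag
Wnt11: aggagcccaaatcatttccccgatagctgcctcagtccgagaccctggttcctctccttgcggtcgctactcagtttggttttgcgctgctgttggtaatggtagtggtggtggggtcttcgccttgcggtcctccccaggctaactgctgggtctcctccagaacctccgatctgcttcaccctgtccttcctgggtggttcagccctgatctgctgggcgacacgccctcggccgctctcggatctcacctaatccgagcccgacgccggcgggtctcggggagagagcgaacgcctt
Sfrp2: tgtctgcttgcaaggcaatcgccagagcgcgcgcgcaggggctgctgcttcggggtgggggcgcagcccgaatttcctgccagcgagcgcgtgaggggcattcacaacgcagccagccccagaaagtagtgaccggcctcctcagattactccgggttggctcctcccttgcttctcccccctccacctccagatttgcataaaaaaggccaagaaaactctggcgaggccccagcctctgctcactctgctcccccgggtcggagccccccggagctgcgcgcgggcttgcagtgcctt
Both strands were searched for 7 motifs, and the capitals mark matches. The GC box GGGCGG was found 4 times in the Wnt9b window and 6 times in the Fzd4 window, where 1 pair of matches overlaps, and it was in 33.1% of all 33469 promoter windows. The CCAAT box CCAAT was found once in the Fzd4 window and was in 37.5% of all windows. The ETS core CGGAAG, the TCF/LEF core CTTTGA, the SOX core ATTGTT, the GATA core AGATAA and the TATA box TATAAA were in 16.6, 16.1, 11.7, 11.6 and 14.2% of all windows and in none of these 5, which says only that these letters are not in these windows. In all, 26 members matched the promoter table, 10 of them among the 17 members described below. The shares of G and C were 72.0% for Wnt9b, 70.7% for Fzd4, 58.3% for Wnt5a, 61.7% for Wnt11 and 65.0% for Sfrp2, against a median of 51.7% over all windows.

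Of the 37 members, 17 had at least 30 UMIs in at least 1 class and are described with their values: 8 Wnt ligands, 5 Frizzled receptors, 2 Sfrp genes and 2 Dkk genes. The other 20 members were Wnt1, Wnt3, Wnt3a, Wnt6, Wnt7a, Wnt7b, Wnt8a, Wnt8b, Wnt10a, Wnt10b, Wnt16, Fzd5, Fzd7, Fzd8, Fzd9, Fzd10, Sfrp4, Sfrp5, Dkk1 and Dkk4. They had between 0 and 101 UMIs in all 41731 nuclei, 438 in sum and at most 26 in any 1 class. Dkk1 and Fzd10 were at 0, which allows a level of up to 0.0343 CPM over all nuclei used. All members together took 218, 223, 206 and 295 CPM of the named nuclei in libraries 1 to 4.

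**Figure D1:**
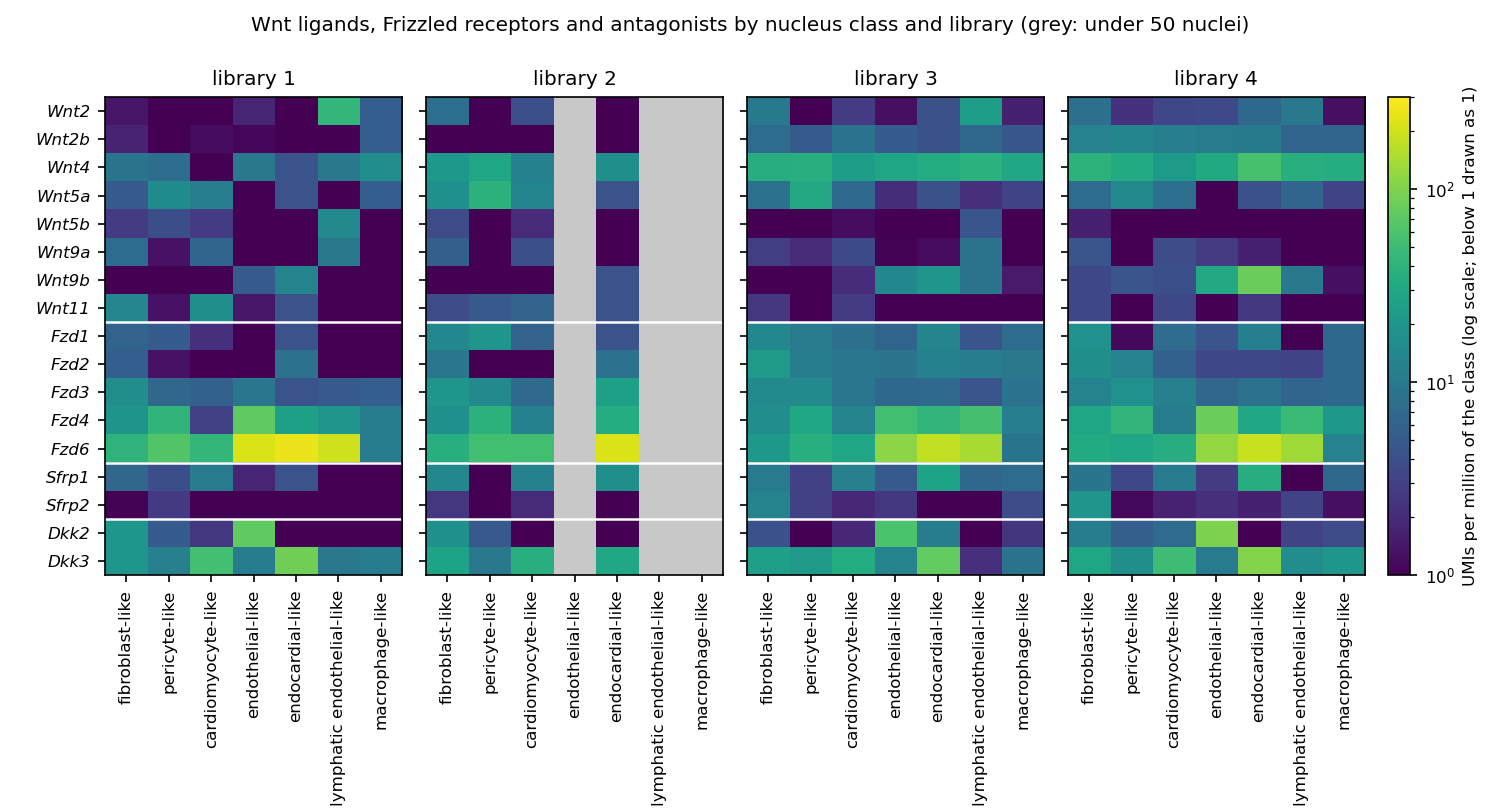
Levels of the 17 described members (rows: ligands, receptors, Sfrp and Dkk genes, separated by white lines) in 7 classes (columns) of libraries 1 to 4 (panels), in CPM on a log colour scale, with levels below 1 drawn as 1. Fzd6 was brightest in the endothelial, endocardial and lymphatic endothelial columns, up to 255 CPM in endocardial-like nuclei of library 1, and Wnt4 had a similar colour in all columns of libraries 3 and 4. Grey columns hold fewer than 50 nuclei.

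A member was called high in a class when its CPM was at least 2-fold that of all other named nuclei in each of the 4 libraries. By this rule Fzd6 was high in the endothelial-like, endocardial-like and lymphatic endothelial-like classes, Wnt9b in the endocardial-like class, Fzd2 in the fibroblast-like class and Wnt5a in the pericyte-like class. No member was high in cardiomyocyte-like or macrophage-like nuclei. The calls were 1 of 20 members tested in endothelial-like nuclei against 2.76% of all genes tested, 2 of 20 in endocardial-like nuclei against 1.38%, 1 of 21 in lymphatic endothelial-like nuclei against 1.54%, 1 of 20 in fibroblast-like nuclei against 4.15% and 1 of 20 in pericyte-like nuclei against 1.55%. Without library 2 the counts were 4 of 20 in endothelial-like nuclei against 4.24%, 4 of 20 in endocardial-like nuclei against 2.09% (Dkk3 and Sfrp4 added), 2 of 21 in lymphatic endothelial-like nuclei against 2.42% (Wnt2 added), 2 of 20 in fibroblast-like nuclei against 5.24% (Sfrp2 added) and 1 of 20 in cardiomyocyte-like nuclei against 6.24% (Wnt11). Sfrp4 had 30.2, 0, 6.48 and 3.33 CPM in endocardial-like nuclei, from 22 UMIs, against 0.714, 2.57, 0.676 and 0.782 CPM in all other named nuclei. For the 0 of 20 in cardiomyocyte-like and macrophage-like nuclei the backgrounds were 5.05 and 2.33%. The background was 1.63% in T or NK cell-like and 1.3% in Schwann or neuronal-like nuclei, where no member was high either, and without library 2 Sfrp1 was high in Schwann or neuronal-like nuclei, 1 of 21 against 2.14%. Members were also called low, at least 2-fold below all other named nuclei in each of the 4 libraries. These were Wnt11, Wnt5a and Sfrp1 in endothelial-like nuclei, 3 of 20 against 8.37%. In fibroblast-like nuclei Fzd6 and Wnt9b were low, 2 of 20 against 4.48%, and in cardiomyocyte-like nuclei Dkk2, 1 of 20 against 4.72%. Low calls of members in the other classes are not listed. Counts of 1 to 4 genes are too few to set the family apart from these backgrounds.

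Among the ligands, Wnt9b was more abundant in the endocardial-like and endothelial-like classes than in the other nuclei. Wnt9b acts through beta-catenin and is known from kidney and craniofacial development and, in the heart, from the endocardium of forming valves. In endocardial-like nuclei it stood at 13, 4.28, 19.4 and 81.6 CPM in libraries 1 to 4, against 1.10, 0.321, 2.95 and 12.2 CPM in all other named nuclei. The ratios were 11.7 (2.21 to 40.6), 13.3 (0.170 to 1045), 6.60 (4.33 to 9.81) and 6.69 (5.23 to 8.50), of which that of library 2 rests on 1 UMI. In endothelial-like nuclei it stood at 5.10, 0, 14.2 and 31.4 CPM, against 0.465, 0.610, 2.18 and 10.1 CPM in all other named nuclei. The 0 of library 2 allows up to 46.1 CPM, so no difference was detectable there, and in libraries 1, 3 and 4 the ratios were 11.0 (3.96 to 34.8), 6.49 (4.60 to 9.15) and 3.12 (2.50 to 3.91). Library 4 was highest in both classes, and fibroblast-like nuclei had 0, 0, 0.853 and 3.48 CPM.

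Wnt5a, a ligand of Ror2 that acts mostly without beta-catenin, was highest in pericyte-like nuclei among the classes of at least 100 nuclei in each library. The leading genes of the pericyte-like cluster include Myh11, a smooth muscle gene. It stood at 15.8, 39.2, 31.6 and 14.7 CPM there, against 7.86, 14.3, 5.65 and 4.98 CPM in all other named nuclei. The ratios were 2.01 (1.01 to 3.65), 2.74 (1.11 to 5.87), 5.59 (3.71 to 8.18) and 2.96 (1.52 to 5.30), from 64 UMIs in all. The call of library 1 lies at the bound of the rule, and it was lost, at 1.55-fold, with the minimum depth of a nucleus raised to 1000 UMIs. Fibroblast-like nuclei had 5.14, 17.4, 8.61 and 7.58 CPM and cardiomyocyte-like nuclei 11.6, 13.2, 7.10 and 8.05 CPM of Wnt5a, while endothelial-like nuclei had 0.729, 0, 2.09 and 1.01 CPM.

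Wnt11, known for polarity signalling in heart development, had 182 UMIs in cardiomyocyte-like and 96 in fibroblast-like nuclei and differed between libraries in both. Cardiomyocyte-like nuclei had 17.2 (14.5 to 20.3), 6.1 (2.24 to 13.3), 2.77 (1.58 to 4.50) and 3.39 (1.94 to 5.50) CPM, against 6.46, 3.39, 1.25 and 1.41 CPM in all other named nuclei. Their ratios were 2.66, 1.80, 2.22 and 2.41, so Wnt11 reached the 2-fold bound in libraries 1, 3 and 4, where 6.24% of all genes tested did, and not in library 2, which held 6 of its UMIs in this class. Without the cardiomyocyte-like nuclei above 5000 UMIs the levels were 17.5, 7.92, 1.60 and 2.62 CPM, and the ratios of 2.70, 2.34, 1.29 and 1.86 missed the bound in libraries 3 and 4. Fibroblast-like nuclei had 14.1, 3.72, 2.48 and 3.48 CPM, so in both classes the library 1 interval lay above those of libraries 3 and 4. Endothelial-like nuclei had 1.46, 0, 0 and 0.168 CPM of Wnt11.

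Wnt2, which acts through beta-catenin, was seen in fibroblast-like nuclei at 1.37, 8.06, 10.1 and 8.19 CPM, against 1.34, 2.31, 2.56 and 3.55 CPM in all other named nuclei. Library 1 was the lowest, with 4 UMIs. In lymphatic endothelial-like nuclei Wnt2 had 44.0, 0, 24.5 and 9.74 CPM, from 23 UMIs in all, against 0.777, 5.16, 4.84 and 4.58 CPM in all other named nuclei. The intervals of the lymphatic values, 20.1 to 83.5 in library 1 and 12.2 to 43.9 in library 3, lay above the other nuclei, while that of library 4, 2.01 to 28.5, did not.

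Wnt4 and Wnt2b were called high in no class and differed between libraries. Wnt4, known from kidney and gonad development and from fibrosis, stood at 4.73 (3.72 to 5.94), 20.6 (16.0 to 26.1), 32.3 (30.5 to 34.1) and 34.0 (31.5 to 36.6) CPM over all named nuclei of libraries 1 to 4. Among classes of at least 100 nuclei it ran from 0.837 to 17.2 CPM in library 1, from 12.2 to 29.4 CPM in library 2, from 24.6 to 50.1 CPM in library 3 and from 22.2 to 57.5 CPM in library 4, and cardiomyocyte-like nuclei were the lowest in each of the 4 libraries. Wnt2b stood at 1.21 (0.731 to 1.90), 0.598 (0.0724 to 2.16), 6.49 (5.71 to 7.35) and 10.8 (9.42 to 12.3) CPM over all named nuclei.

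The estimated free RNA share of fibroblast-like nuclei was 17.9, 46.0, 50.9 and 48.2% in libraries 1 to 4, and that of cardiomyocyte-like nuclei 41.2, 56.6, 66.6 and 61.5%, lowest in library 1, where Wnt4 was lowest too. After subtraction of that share Wnt4 stood at 9.75, 25.2, 37.8 and 44.7 CPM in fibroblast-like nuclei and at 0, 6.66, 8.66 and 2.92 CPM in cardiomyocyte-like nuclei. Library 1 stayed the lowest in both classes after subtraction, and library 4 was the highest in fibroblast-like nuclei but not in cardiomyocyte-like nuclei.

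The last ligands were scarce. Wnt9a stood at 7.55, 5.58, 2.87 and 4.50 CPM in fibroblast-like nuclei and at 6.33, 4.06, 3.64 and 3.81 CPM in cardiomyocyte-like nuclei, with 90 and 96 UMIs. Wnt5b stood at 2.74, 3.72, 1.01 and 1.64 CPM in fibroblast-like nuclei, with 35 UMIs. Neither was called high in any class. Among classes of at least 100 nuclei both were highest in lymphatic endothelial-like nuclei in libraries 1 and 3 and in fibroblast-like nuclei in libraries 2 and 4. The lymphatic values were 9.77 and 8.92 CPM for Wnt9a and 14.7 and 4.46 CPM for Wnt5b. Their intervals overlapped those of the next class.

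Among the receptors, Fzd6 was the member called high in most classes. Fzd6 is a Frizzled known from planar polarity and, in some settings, for restraining beta-catenin signalling. Endothelial-like nuclei had 216, 199.8, 112 and 118 CPM in libraries 1 to 4, against 50.0, 57.6, 28.3 and 45.8 CPM in all other named nuclei. The ratios were 4.31 (3.85 to 4.83), 3.47 (1.81 to 6.08), 3.96 (3.55 to 4.40) and 2.57 (2.31 to 2.86), the second from 13 UMIs. With unnamed cluster 5 counted as endothelial-like, Fzd6 no longer met the bound of the rule in library 2.

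Endocardial-like nuclei had 255, 222, 179 and 185 CPM of Fzd6, against 76.5, 48.2, 32.2 and 59.5 CPM in all other named nuclei, and lymphatic endothelial-like nuclei had 200.3, 158, 143 and 133 CPM, against 77.5, 58.9, 37.5 and 65.8 CPM. The 3 classes that line vessels or chambers thus had higher levels than each of the others in each library, where these could be ranked. Dendritic-like nuclei of libraries 1 and 2 and neutrophil-like nuclei of library 1 were too few to rank, at 17, 13 and 3. There 3 UMIs alone amount to 190.5, 194 and 1142 CPM. Within the endothelial-like class libraries 3 and 4 lay below library 1. Fibroblast-like nuclei were 2-fold or more below the rest, at 40.8, 36.0, 20.7 and 32.8 CPM against 87.9, 83.1, 47.7 and 77.6 CPM, a rule that 4.48% of all genes tested met.

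Fzd4, the receptor for the ligand norrin in vessel formation of the eye, was high in endothelial-like nuclei of 3 libraries. It stood at 75.1, 15.4, 53.2 and 80.6 CPM, against 9.77, 19.5, 16.8 and 23.0 CPM in all other named nuclei. In libraries 1, 3 and 4 the ratios were 7.68 (6.12 to 9.66), 3.17 (2.73 to 3.68) and 3.50 (3.04 to 4.04), while library 2 had 1 UMI in this class, with an interval of 0.389 to 85.6 CPM. In those 3 libraries 4 of 20 members were at least 2-fold higher in endothelial-like nuclei, namely Fzd4, Fzd6, Wnt9b and Dkk2, against 4.24% of all genes tested. Lymphatic endothelial-like nuclei had 19.5, 79.1, 55.7 and 48.7 CPM of Fzd4, pericyte-like nuclei 42.2, 39.2, 30.6 and 43.0 CPM, and cardiomyocyte-like nuclei 2.99, 12.2, 12.8 and 11.0 CPM.

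Fzd1 and Fzd2, closely related receptors that can signal through beta-catenin, were more abundant in fibroblast-like nuclei than in the sum of all other named nuclei. Fzd2 stood at 5.49, 9.30, 21.8 and 17 CPM there, against 0.786, 2.31, 9.86 and 5.36 CPM in all other named nuclei, with ratios of 6.98 (2.98 to 17.2), 4.03 (1.28 to 16.7), 2.21 (1.86 to 2.63) and 3.17 (2.31 to 4.35). Fzd1 was at 6.17, 14.3, 14.2 and 17.8 CPM, against 1.96, 8.66, 7.99 and 6.13 CPM, and missed the 2-fold bound in libraries 2 and 3, at 1.65 and 1.78. Both receptors were lowest in library 1.

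Fzd3, a receptor of axon guidance and planar polarity, was more even, at 16.8, 19.8, 15.3 and 12.7 CPM in fibroblast-like nuclei, against 6.84, 12.7, 8.23 and 9.10 CPM in all other named nuclei. Its ratios were 2.46, 1.56, 1.86 and 1.39, so it passed the bound in library 1 alone.

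Among the antagonists, Dkk2 was more abundant in endothelial-like nuclei than in the rest, and inside that class most of its UMIs lay in 1 cluster. In all endothelial-like nuclei it stood at 74.3, 15.4, 59.5 and 96.9 CPM, against 6.98, 9.75, 3.22 and 7.28 CPM in all other named nuclei. The ratios in libraries 1, 3 and 4 were 10.6 (8.27 to 13.8), 18.5 (14.8 to 23.3) and 13.3 (10.8 to 16.6), and library 2 had 1 UMI in the class.

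Cluster 17 held 457 of the 6139 endothelial-like nuclei of these 3 libraries and 1023 of their 1066 Dkk2 UMIs. Dkk2 stood at 1048, 1047 and 863 CPM in cluster 17 in libraries 1, 3 and 4, against 4.68, 3.75 and 2.64 CPM in the other endothelial-like nuclei, ratios of 224 (125 to 440.4), 279 (171 to 487) and 327 (193 to 602). Besides Dkk2 the leading genes of cluster 17 included Gja5, Bmx and Sox17, which are known from arterial endothelium, and its median depth of 1901 UMIs was close to the 1919 UMIs of cluster 7. Dkk2 and the other Wnt genes were left out of the genes that formed the clusters, but a cluster set against the rest of its class is a description and no test.

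Wnt9b had the opposite distribution inside the endothelial-like class. Cluster 17 held 0 of its 269 UMIs, whereas the other endothelial-like nuclei had 5.47, 15 and 35.3 CPM in libraries 1, 3 and 4. In library 4 the level in cluster 17 was at least 7.67-fold lower than in the other endothelial-like nuclei, with the floor set at 3 UMIs in the library. In library 3 it was at least 1.28-fold lower, and in library 1 the floor of 16.4 CPM lay above the level of the other nuclei.

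The 2 receptors were present on both sides. Fzd6 stood at 360.2, 203 and 245 CPM in cluster 17, against 205, 107 and 102 CPM in the other endothelial-like nuclei of libraries 1, 3 and 4, ratios of 1.75 (1.34 to 2.27), 1.90 (1.40 to 2.53) and 2.40 (2.00 to 2.87). Fzd4 was at 65.5, 74.2 and 72.1 CPM, against 75.7, 52.0 and 81.7 CPM, and each of its 3 ratio intervals held 1. Of 12 members compared inside the class, Dkk2 was at least 2-fold higher in cluster 17 in each of these libraries, as were 1.55% of all genes tested. Cluster 17 was picked because Dkk2 is the first of its leading genes, so this call was fixed in advance. Wnt2 and Wnt9b were at least 2-fold lower there with a count of 0 taken as 0, as were 3.15% of all genes tested. Wnt2 had only 32 UMIs in the class in these libraries, 1 of them in cluster 17.

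**Figure D2:**
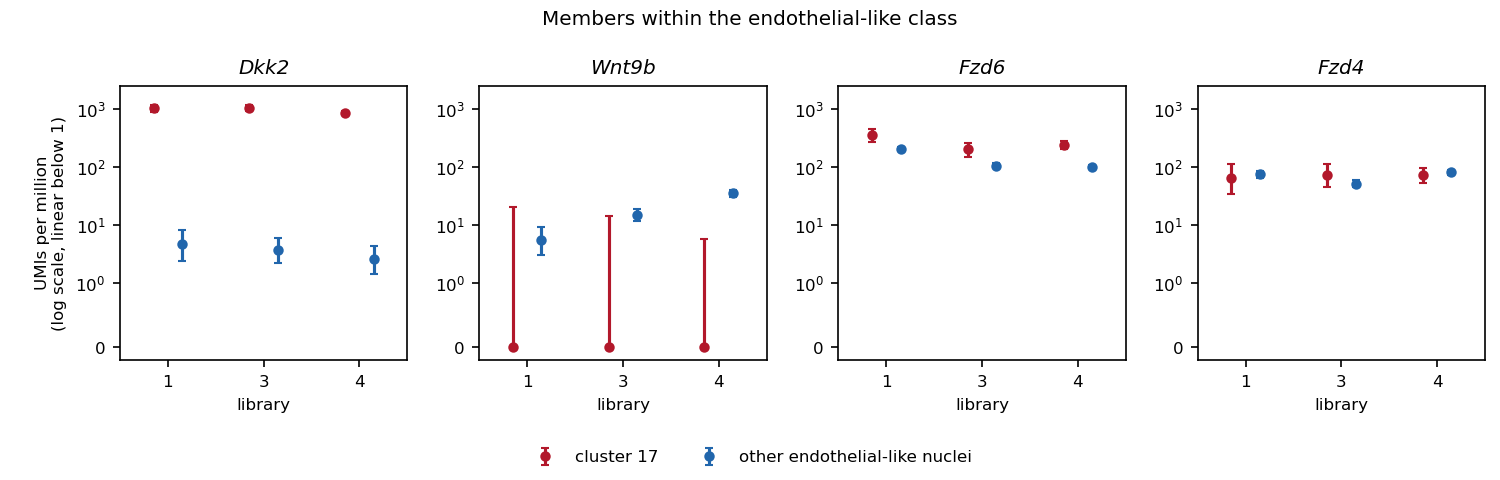
Levels of Dkk2, Wnt9b, Fzd6 and Fzd4 in cluster 17 (red, left) and in the other endothelial-like nuclei (blue, right) of libraries 1, 3 and 4, in CPM on a log axis that is linear below 1, with exact 95% Poisson intervals. Dkk2 stood at 863 to 1048 CPM in cluster 17 and at 2.64 to 4.68 CPM in the others, and Wnt9b was at 0 in cluster 17. Library 2 is not drawn because it has 1 nucleus in cluster 17.

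Dkk3, a secreted glycoprotein of the Dickkopf family, was more abundant in endocardial-like and cardiomyocyte-like nuclei than in all other named nuclei. Endocardial-like nuclei had 86.4, 29.9, 76.0 and 104 CPM, against 36.9, 26.7, 19.6 and 26.7 CPM in all other named nuclei. The ratios were 2.34 (1.42 to 3.65), 1.12 (0.438 to 2.42), 3.87 (3.18 to 4.67) and 3.90 (3.18 to 4.75), so the 2-fold bound was missed in library 2 alone. Cardiomyocyte-like nuclei had 55.1, 35.6, 33.2 and 50.6 CPM of Dkk3, against 17.6, 23.3, 20.2 and 25.4 CPM, with ratios of 3.13, 1.53, 1.65 and 1.99.

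Sfrp2, an antagonist known from fibroblasts of injured heart, was more abundant in fibroblast-like nuclei of libraries 3 and 4 than in all other named nuclei and differed widely between libraries. It stood at 1.03 (0.212 to 3.01), 2.48 (0.676 to 6.35), 13 (11.1 to 15.1) and 19.7 (15.9 to 24.0) CPM in fibroblast-like nuclei, against 0.236, 1.73, 2.99 and 1.81 CPM in all other named nuclei. Libraries 1 and 2 had 3 and 4 UMIs in the class and libraries 3 and 4 had 167 and 96, and neither interval of the first pair reached those of the second. Libraries 3 and 4 gave ratios of 4.33 (3.29 to 5.75) and 10.9 (7.07 to 17.2), whereas those of libraries 1 and 2, 4.36 (0.584 to 32.6) and 1.43 (0.242 to 9.78), could not be told from 1.

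Inside the fibroblast-like class Sfrp2 was lower in cluster 18, which has the highest median depth of all clusters at 7569 UMIs. It stood at 4.38 and 3.35 CPM in cluster 18 in libraries 3 and 4, against 15 and 31.9 CPM in the other fibroblast-like nuclei, ratios of 0.291 (0.143 to 0.536) and 0.105 (0.0411 to 0.226). Of 15 members tested there, Sfrp2 was at least 2-fold lower in both libraries, as were 0.773% of all genes tested, and Fzd6 was at least 2-fold higher, as were 3.55%. Wnt9b had too few UMIs to be tested, at 2.79 and 5.74 CPM in cluster 18 against 0.385 and 1.79 CPM. Cluster 18 had 4 of 10 fibroblast markers past the bounds for a name, against 7 of 10 in cluster 13. Whether it holds other nuclei as well was not tested.

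Sfrp1, the other Sfrp gene described, stood in endocardial-like nuclei at 4.32, 17.1, 27.1 and 35 CPM in libraries 1 to 4, against 7.59, 11.6, 8.85 and 7.30 CPM in all other named nuclei. The ratios of libraries 3 and 4 were 3.06 (2.20 to 4.18) and 4.79 (3.31 to 6.81), and those of libraries 1 and 2 rest on 1 and 4 UMIs. Schwann or neuronal-like nuclei had 17.2, 0, 64.9 and 30.5 CPM of Sfrp1, from 16 UMIs. Fibroblast-like nuclei had 6.52, 14.3, 10.3 and 9.21 CPM of Sfrp1 and cardiomyocyte-like nuclei 10.5, 12.2, 11.9 and 10.6 CPM.

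**Figure D3:**
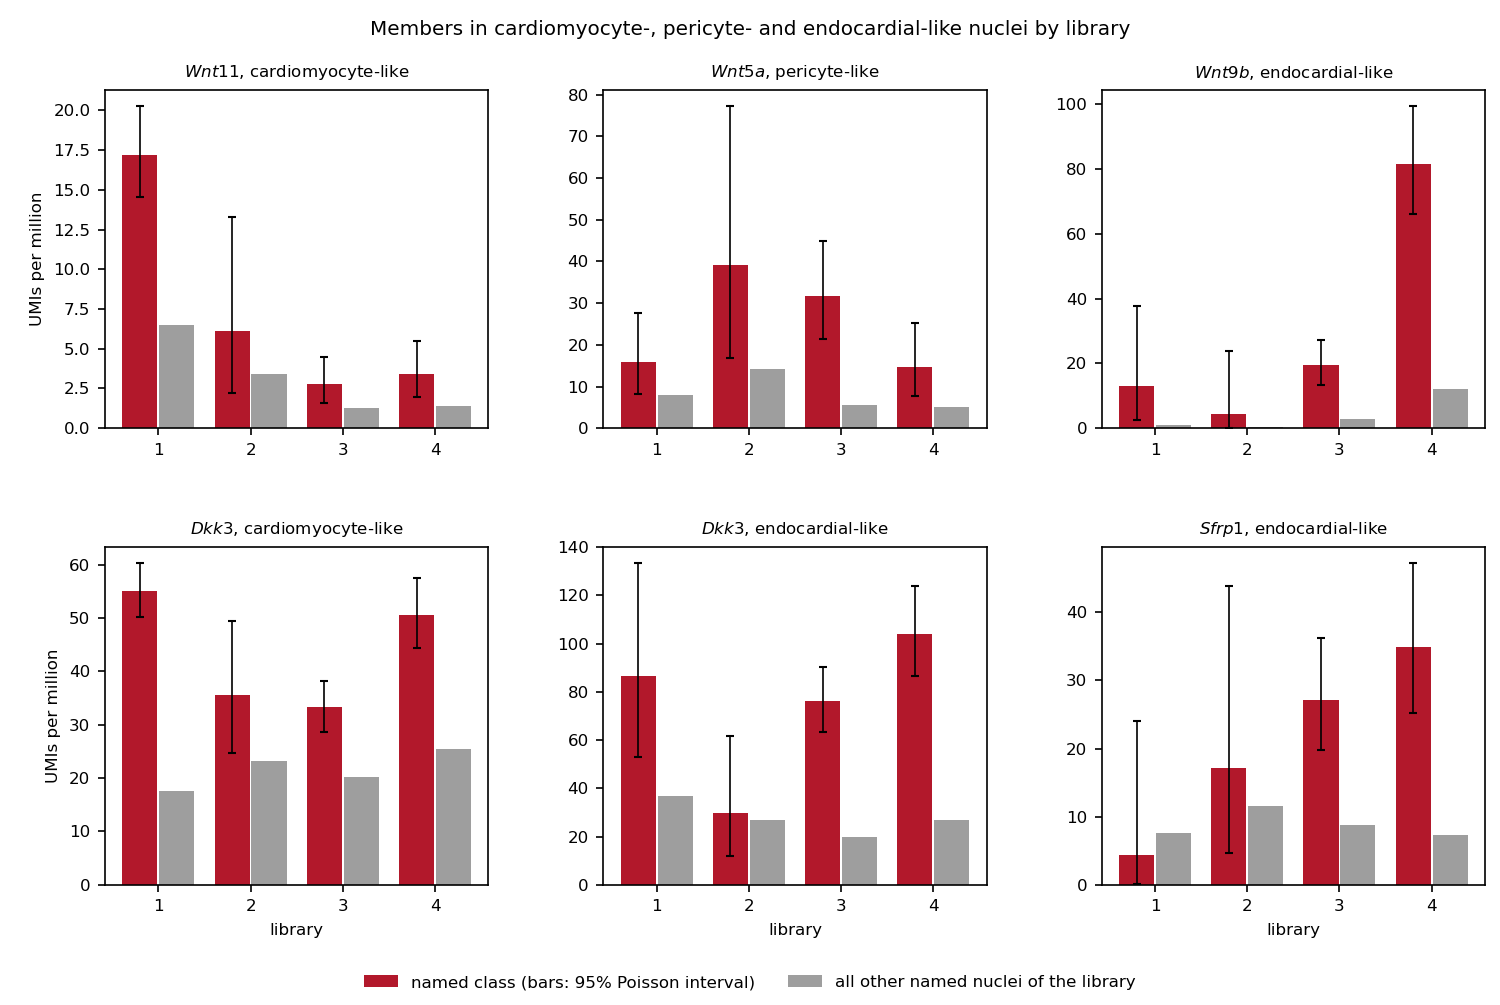
Levels of Wnt11 in cardiomyocyte-like, Wnt5a in pericyte-like, Wnt9b in endocardial-like, Dkk3 in cardiomyocyte-like and endocardial-like and Sfrp1 in endocardial-like nuclei (red, with exact 95% Poisson intervals) beside all other named nuclei (grey) of libraries 1 to 4, in CPM. Wnt11 was highest in library 1, at 17.2 CPM, and Wnt9b in library 4, at 81.6 CPM.

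Between libraries a member was said to span widely inside a class when its highest library was at least 2-fold its lowest. In fibroblast-like nuclei 12 of 16 members did, against 56.7% of all genes tested, and all 7 ligands tested were among them. Sfrp2 spanned 19.1-fold, Wnt2 7.35-fold, Wnt2b 7.28-fold and Wnt4 4.50-fold, each lowest in library 1 or 2, while Wnt11 spanned 5.67-fold and was highest in library 1. The median span was 3.53-fold over the members and 2.21-fold over all genes. The genes were not matched to the members in UMI count, and low counts widen a span. These medians therefore do not set the members apart. Fzd3, Fzd4, Fzd6 and Dkk3 stayed within 2-fold.

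In cardiomyocyte-like nuclei 11 of 16 members spanned widely, against 65.6% of all genes tested, and in endothelial-like nuclei 8 of 12, against 51.4%. These shares lie near their backgrounds. Without library 1 the counts were 5 of 15 members in fibroblast-like nuclei against 28.2% of all genes tested, 3 of 11 in endothelial-like nuclei against 19.3%, and 5 of 15 in cardiomyocyte-like nuclei, where 3780 of 12610 genes tested did. Without library 2 they were 9 of 15 in fibroblast-like nuclei against 44.8% and 7 of 12 in endothelial-like nuclei against 41.5%. In cardiomyocyte-like nuclei the count stayed at 11 of 16, against 56.9%. In endothelial-like nuclei the counts were also 4 of 8 against 43.3% without library 3 and 4 of 9 against 46.3% without library 4, and in cardiomyocyte-like nuclei 7 of 14 against 61.6% without library 4.

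Marker levels of other classes also differed between libraries. The summed level of the 10 fibroblast markers in cardiomyocyte-like nuclei was 199, 1269, 3771 and 2332 CPM in libraries 1 to 4, none of the 10 at 0, while the summed level in fibroblast-like nuclei themselves was 7186, 6015, 10559 and 8649 CPM. The 10 macrophage markers summed to 83.0, 272, 809 and 439 CPM in fibroblast-like nuclei, also with none at 0. After subtraction of the estimated free RNA 13 of 15 members spanned widely in fibroblast-like nuclei, 4 of 8 in cardiomyocyte-like nuclei and 4 of 7 in endothelial-like nuclei. The share of all genes is not given for this setting, so these counts cannot be set against a background. The part of depth, of free RNA and of the differing clusters in the library differences was not tested. With 1 library per sample they cannot be told apart from the condition.

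**Figure D4:**
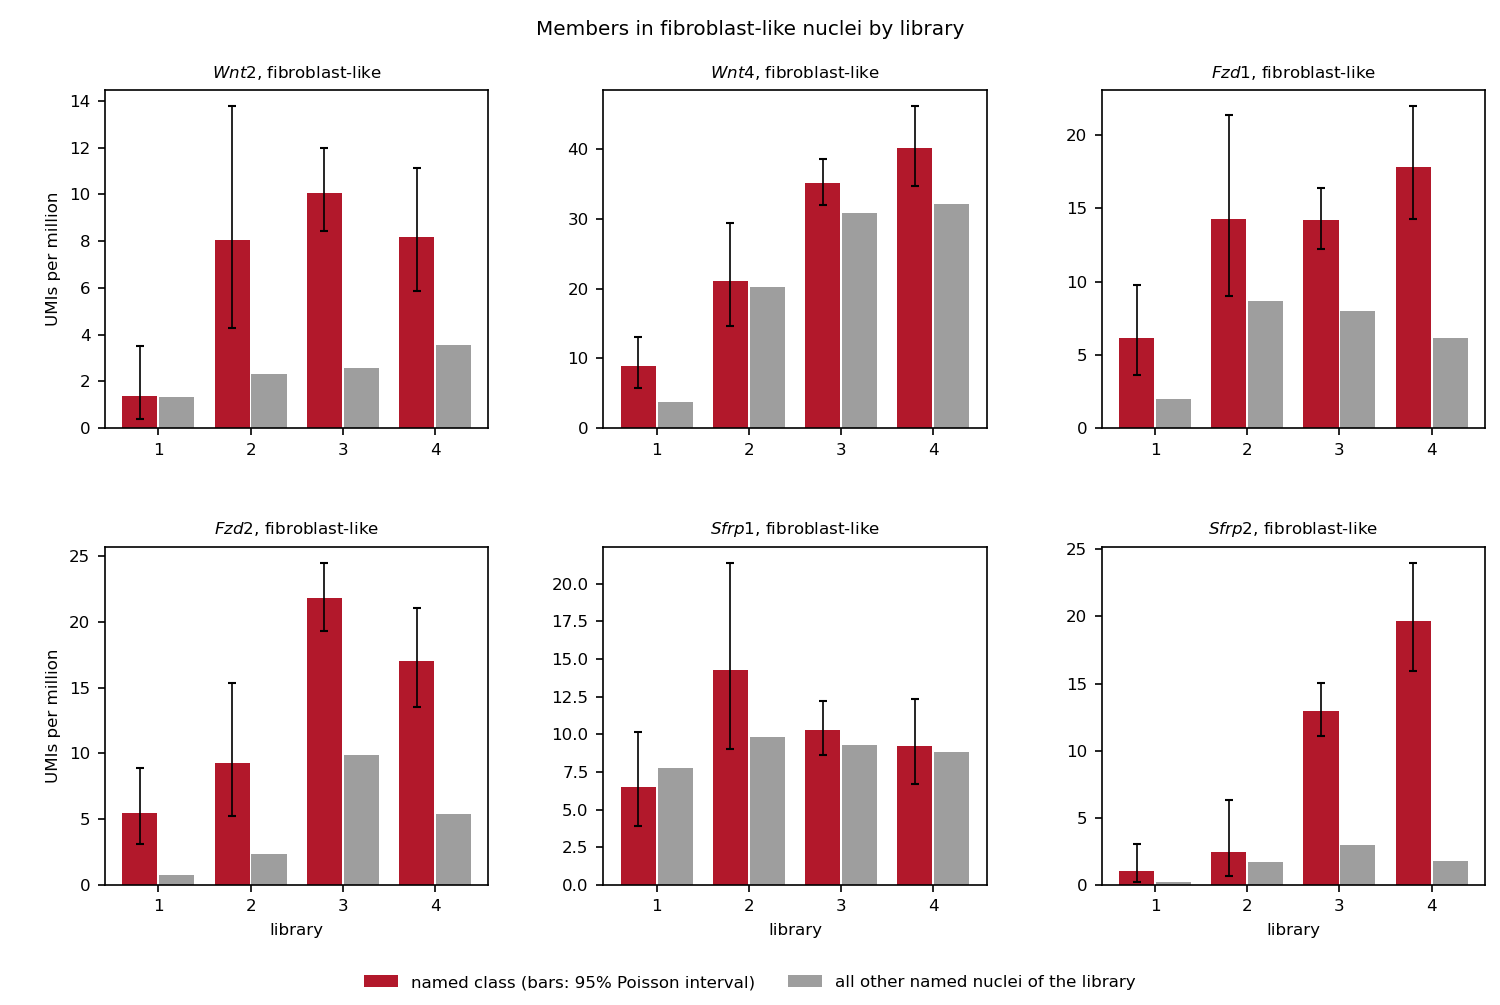
Levels of Wnt2, Wnt4, Fzd1, Fzd2, Sfrp1 and Sfrp2 in fibroblast-like nuclei (red, with exact 95% Poisson intervals) beside all other named nuclei (grey) of libraries 1 to 4, in CPM. Sfrp2 stood at 13 and 19.7 CPM in libraries 3 and 4, against 1.03 and 2.48 CPM in libraries 1 and 2, and Wnt4 was alike in both groups of nuclei in libraries 2 to 4.

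The rest of the pathway was followed with 8 lists of 62 symbols, 60 of them found in the files. In fibroblast-like nuclei, where 4.15% of all genes tested were high and 4.48% low, 3 of 6 co-receptors were high and 0 low: Ror1 and Ror2, receptors for Wnt5a, and Ptk7, a co-receptor of planar polarity. Ror2 stood at 181, 241, 169 and 141 CPM there, against 8.33, 38.1, 27.6 and 26.5 CPM in all other named nuclei. Ror1 was at 166, 76.2, 86.2 and 76.6 CPM, against 13.2, 36.4, 27.4 and 23.2 CPM, and Ptk7 at 27.1, 27.3, 38.1 and 29.3 CPM, against 2.75, 5.77, 6.48 and 5.10 CPM. The median difference of the co-receptors was 0.95 on the log2(CPM + 10) scale, against 0.06 over all genes. Rspo1, a secreted amplifier of Wnt signalling, was 1 of 5 of the R-spondin axis called high, with 2 low (Lgr6 and Rnf43), at 21.3, 6.82, 10.7 and 11.5 CPM, against 0.786, 2.31, 5.28 and 3.23 CPM. Pygo1, a nuclear partner of beta-catenin, was 1 of 8 nuclear effectors called high, with 0 low, at 54.2, 61.4, 29.6 and 27.0 CPM, against 15.6, 11.5, 6.56 and 5.87 CPM. The other low calls in this class were Celsr1 of the 9 polarity genes and, again, Rnf43 of the 9 common targets.

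In cardiomyocyte-like nuclei, where 5.05% of all genes tested were high and 4.72% low, 2 of 5 tested genes of the R-spondin axis were high and 0 low. Low calls were Ptk7 of the 6 co-receptors, Lef1 of the 8 nuclear effectors and of the 9 common targets, Prickle2 of the 9 polarity genes and Sostdc1 of the 6 other antagonists. Lgr6, a receptor for R-spondins, stood at 386, 187, 147 and 172 CPM, against 40.0, 26.7, 11.2 and 31.8 CPM in all other named nuclei, ratios of 9.65 (8.56 to 10.9), 7.01 (5.24 to 9.49), 13.2 (11.6 to 14.9) and 5.42 (4.84 to 6.07). Rnf43, the ligase that removes Frizzled receptors from the cell surface and is itself a beta-catenin target, stood at 47.7, 35.6, 31.0 and 30.7 CPM, against 9.08, 8.47, 7.78 and 6.64 CPM. Celsr1, a planar polarity cadherin, was 1 of 9 polarity genes called high, at 31.7, 26.4, 9.52 and 13.6 CPM, against 4.26, 5.93, 2.86 and 2.17 CPM. In endothelial-like nuclei none of the genes of the 8 lists was called high, and the low calls were 2 of 6 co-receptors, 3 of 5 of the R-spondin axis, 1 of 8 nuclear effectors, 2 of 9 common targets and 2 of 9 polarity genes, where 8.37% of all genes tested were low.

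The smaller classes had high calls of their own. Of all genes tested, 1.55% were high in pericyte-like, 1.38% in endocardial-like and 1.54% in lymphatic endothelial-like nuclei. Low calls of the pericyte-like class are not listed. Daam2, a formin of the polarity branch, stood at 154, 93.1, 70.3 and 72.4 CPM in pericyte-like nuclei, against 8.27, 19.7, 5.84 and 5.23 CPM in all other named nuclei. Apcdd1, a membrane antagonist, stood at 8.64, 12.8, 19.4 and 27.5 CPM in endocardial-like nuclei, against 2.53, 2.25, 3.52 and 3.60 CPM. It was 1 of 6 other antagonists called high there. Low in this class were Rspo1, Lgr6 and Rnf43 of 5 genes of the R-spondin axis. So were Nkd2 and Rnf43 of 9 common targets, Daam2 of 9 polarity genes and 1232 of all 15897 genes tested. In lymphatic endothelial-like nuclei Celsr1 had 83.1, 59.3, 44.6 and 32.5 CPM, against 18.1, 11.2, 3.38 and 4.39 CPM, and Vangl1, a membrane protein of planar polarity, had 103, 79.1, 109 and 77.9 CPM, against 18.1, 34.0, 23.9 and 28.3 CPM. Low calls in this class included Lgr5 and Lgr6 of 5 genes of the R-spondin axis and Frzb and Sostdc1 of 6 other antagonists.

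In Schwann or neuronal-like nuclei Nkd2, a feedback inhibitor, had 936, 516, 166 and 183 CPM, against 7.54, 8.76, 4.52 and 9.60 CPM, and Lgr4, an R-spondin receptor, had 532, 543, 324 and 299 CPM, against 86.1, 87.6, 51.9 and 48.6 CPM. Celsr1 was also called high there, from 14 UMIs, where 1.3% of all genes tested were high. Low calls in this class included Lgr6 of 5 genes of the R-spondin axis, Frzb and Tpbg of 5 other antagonists and Axin2 of 9 common targets. Of all 15953 genes tested 2214 were low. In T or NK cell-like nuclei Lef1 was at 149, 259, 290.1 and 266 CPM, against 3.93, 21.0, 8.98 and 9.30 CPM, and Tcf7 at 238, 148, 173 and 172 CPM, against 7.02, 10.9, 7.71 and 10.3 CPM, both known as T cell transcription factors. They were 2 of 8 nuclear effectors, where 1.63% of all genes tested were high. Low calls in this class were Lgr6 of 5 genes of the R-spondin axis and Sostdc1 of 6 other antagonists. Of all 15924 genes tested 1134 were low. In 2 lists no gene was called high in any class, and their genes with most UMIs were the ligand carrier Wls with the acyltransferase Porcn, and the kinases Csnk1a1 and Gsk3b. Wls stood at 175, 233, 228 and 172 CPM in fibroblast-like nuclei, against 158, 185, 131 and 122 CPM in all other named nuclei, and Porcn at 13.4, 8.68, 7.13 and 9.62 CPM, against 4.95, 9.23, 6.40 and 10.1 CPM. Csnk1a1 was at 490.4, 388, 404 and 429 CPM, against 324, 372, 356 and 409.6 CPM, and Gsk3b at 335, 286, 277 and 268 CPM, against 309, 293, 275 and 290.1 CPM.

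**Figure D5:**
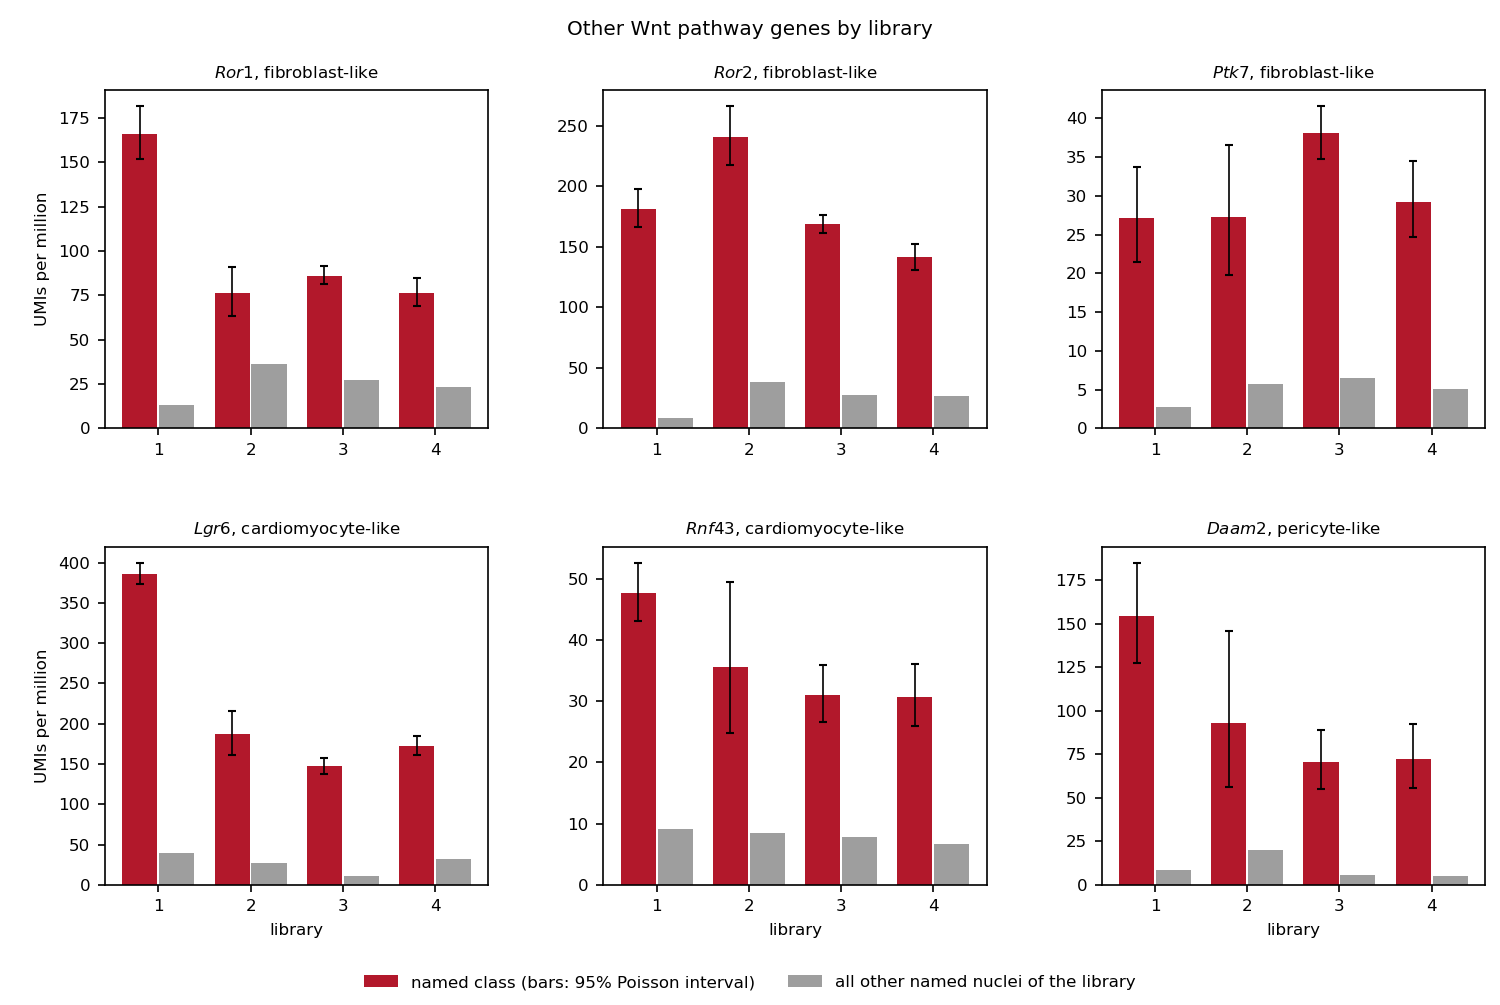
Levels of Ror1, Ror2 and Ptk7 in fibroblast-like, Lgr6 and Rnf43 in cardiomyocyte-like and Daam2 in pericyte-like nuclei (red, with exact 95% Poisson intervals) beside all other named nuclei (grey) of libraries 1 to 4, in CPM. Each red bar is at least 2-fold its grey bar, with Lgr6 at 386 CPM in library 1 the highest.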

How the data were processed

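The authors deposited 1 matrix of unnormalised UMI counts, with 32623 genes, 48637 barcodes and 108629374 UMIs. Per the file headers its maker was cellranger 5.0.1. The submitters' processing notes name Cell Ranger 6.1.1, Seurat and rn 7, and which of these gave the counts is unknown. The members and lists were chosen with earlier results of these data known.

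Filters of 500 or more UMIs, 300 or more genes and a mitochondrial share up to 10% kept 9013, 14603, 16453 and 6521 nuclei in libraries 1 to 4. The highest scrublet scores were removed as doublets at 0.8% per 1000 nuclei, 649, 1705, 2165 and 340 nuclei. Counts were scaled to 10000 per nucleus, log-transformed and clustered with scanpy 1.11.5 (2000 variable genes less the 10 Wnt genes among them, 30 principal components, 15 neighbours, Leiden resolution 1, no integration). A cluster was named when at least 3 markers of a class had a 2-fold lead over clusters of unrelated classes and were seen in 5% of nuclei, with a mean log2 lead of 0.5 over the next class. Class names thus come from markers only, of which 133 of 141 symbols were found.

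UMIs were summed by class and library and divided by the class total. Intervals are exact Poisson for CPM and conditional binomial for ratios. Class contrasts used genes with at least 30 UMIs in the class or in the other named nuclei, and spans those with at least 30 in the class, a library under 3 UMIs being set to 3 and serving only as the lowest. The free RNA share is the share of UMIs at which subtracting the profile of the library brings other classes' markers to 0, an upper estimate. Named values were fixed by rule: members with at least 30 UMIs in a class, and list genes called high or, where none was, the 2 with most UMIs; Wnt2 in lymphatic endothelial-like nuclei and the values inside clusters 17 and 18 were chosen after their values were seen, as were the motifs. The contrasts were also run on simulated data that held counting error only and changed only genes of high UMI count. That run does not cover scarce members or variation between libraries.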

Additional observations from a re-analysis of the deposited data

Results flagged for a closer look

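Dkk2 was also seen in data outside the class comparisons. Unnamed cluster 5, which held 743 nuclei of library 2 and had 1 of 9 endothelial markers past the bounds for a name, had 55 Dkk2 UMIs, a level of 21.7 CPM (16.4 to 28.3). All named nuclei of the same library had 9.86 CPM. Fibroblast-like nuclei, the highest there among classes of at least 100 nuclei, had 17.4 CPM, which lies within the interval of cluster 5. The cluster was flagged because this level lies above the 1.19 CPM that a count of 0 allows.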

How the results depend on the processing

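The 8 counts of members were recomputed under 14 other settings, and 88 of 112 values stayed within 1.5 times the reported count. The count of members high in fibroblast-like nuclei, 1 as reported, was 2 with Wnt genes used for clustering and 2 after free RNA was subtracted, and ran from 1 to 2 with a library left out. In endothelial-like nuclei, 1 as reported, it was 2 with no doublets removed and ran from 1 to 4 with a library left out, 4 without library 2. With unnamed cluster 5 counted as endothelial-like it was 2 and no longer held Fzd6, at 1.93-fold in library 2. In pericyte-like nuclei, 1 as reported, it was 0 at 1000 UMIs per nucleus, 0 with no doublets removed, and 0 with median-of-ratios scaling. In cardiomyocyte-like nuclei, 0 as reported, it was 1 after free RNA was subtracted, 2 with median-of-ratios scaling and ran from 0 to 1 with a library left out. Members with a wide span in endothelial-like nuclei, 8 of 12 tested as reported, numbered 15 of 16 with no doublets removed, 4 of 7 after free RNA was subtracted, 13 of 15 with cluster 5 counted in, and 3 of 11 to 7 of 12 with a library left out. In cardiomyocyte-like nuclei, 11 of 16 as reported, they numbered 4 of 8 after free RNA was subtracted, 7 of 12 without cardiomyocyte-like nuclei above 5000 UMIs, and 5 of 15 to 11 of 16 with a library left out. In fibroblast-like nuclei, 12 of 16 as reported, they ran from 5 of 15 to 11 of 15 with a library left out. The counts of this paragraph stand without the share of all genes. They show how the member counts moved and not how members compare with all genes. The settings on shared barcodes, cluster 5 and nuclei above 5000 UMIs were chosen after seeing the data, and the cause of each move was not tested. No paired analysis was possible because each group has 1 sample and no suffix is tied to a sample. Depth limits library 2 most, where endothelial-like nuclei hold 65062 UMIs.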
